A study of Mus musculus with 19 samples.

Results

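The genes described here are 10 markers of dendritic cells, *Flt3*, *Zbtb46*, *Xcr1*, *Clec9a*, *Batf3*, *Itgae*, *Cd209a*, *Ccr7*, *Fscn1* and *Cacnb3*, taken by symbol from the 27299 genes of a table of sorted retinal microglia. All 10 were in the table. The study compared microglia collected on day 3 after focal laser burns had been placed in the retina to start choroidal neovascularization (CNV d3, 6 samples) with microglia of unlasered eyes (control, 6 samples). In both groups the labels name C57BL/6J mice aged 8 weeks, and the methods of the study name *Cx3cr1* GFP/+ mice on that background, in which a GFP reporter sits in the *Cx3cr1* gene. Cells of the central retina were sorted as positive for CD45 (low in the methods), CD11b and CX3CR1 and lacking Ly6C, a protein of inflammatory monocytes, and Ly6G, a protein of neutrophils. No dendritic cell protein such as CD11c or MHC class II was part of that gate. The sources used here do not say whether the samples of a group came from separate animals, so p-values measure the spread between these samples, which may be technical.

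Dendritic cells take up antigen in tissues, carry it to lymph nodes and present it to T cells. Their precursors depend on the receptor tyrosine kinase FLT3, and conventional dendritic cells (cDC) are marked by the zinc finger factor ZBTB46. The cDC1 type, which presents antigen of dying cells on MHC class I, carries XCR1, CLEC9A and integrin alpha E (CD103) and needs the factor BATF3, whereas cDC2 and monocyte-derived cells can carry the lectin CD209a. On maturation dendritic cells switch on the lymph node homing receptor CCR7 and the actin bundling protein fascin, encoded by *Fscn1*. In the healthy retina such cells are rare, and microglia are the main resident immune cells.

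The CNV d3 samples held 23532260 to 29523018 reads on genes (median 25872622.5) and the control samples 10963178 to 22335233 (median 20637354.5), with control replicate 6 the shallowest. Values are normalized counts, that is reads divided by a size factor per sample, and a single read was worth 0.739 to 1.99 of them. All 10 genes of a list of microglia genes, which includes *Tmem119* and *P2ry12*, had reads in every sample. Their summed level was 1079466 to 1237359 normalized counts in controls and 533189 to 802716 at CNV d3. Of the 10, 2 fell, *P2ry12* (log2FC = -1.65, adjusted p = 1.01e-05 by limma) and *P2ry13* (log2FC = -1.82), and none rose. In bulk samples, fewer cells of a type and less RNA per cell cannot be told apart.

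Of the 10 dendritic cell markers, 5 rose at CNV d3, namely *Flt3*, *Xcr1*, *Cd209a*, *Ccr7* and *Cacnb3*, and 0 fell. The remaining 5, *Zbtb46*, *Clec9a*, *Batf3*, *Itgae* and *Fscn1*, were not called, although *Fscn1* was lower in every CNV d3 sample than in every control. A gene was called where limma on log2(normalized counts + 1) gave a log2 fold change (log2FC) above 1.5 or below -1.5 and an adjusted p under 0.05 by Benjamini-Hochberg over all 27299 genes. By this rule 3.91% of all genes were called increased and 1.07% decreased. The markers were chosen with earlier results of these data known, so a higher share among them is a description and not a test. The median log2FC of the 10 markers was 2.72, beside 0.15 over all genes. At an unadjusted p under 0.05 by limma, 5 markers were higher and 1 was lower, but the share of all genes at this threshold was not computed. A filter of at least 10 normalized counts in at least 6 samples left 8 of the 10 markers and dropped *Cd209a* and *Clec9a*. The call depended on the tool for 3 of the 5: edgeR on the reads called 3 (*Flt3*, *Cd209a* and *Ccr7*), DESeq2 called 5, limma voom called 4 (all but *Ccr7*), and an exact permutation test called 3 (*Flt3*, *Xcr1* and *Cd209a*). A test that the change exceeds the fold threshold itself (limma treat) called 0 of the 10.

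**Figure D1:**
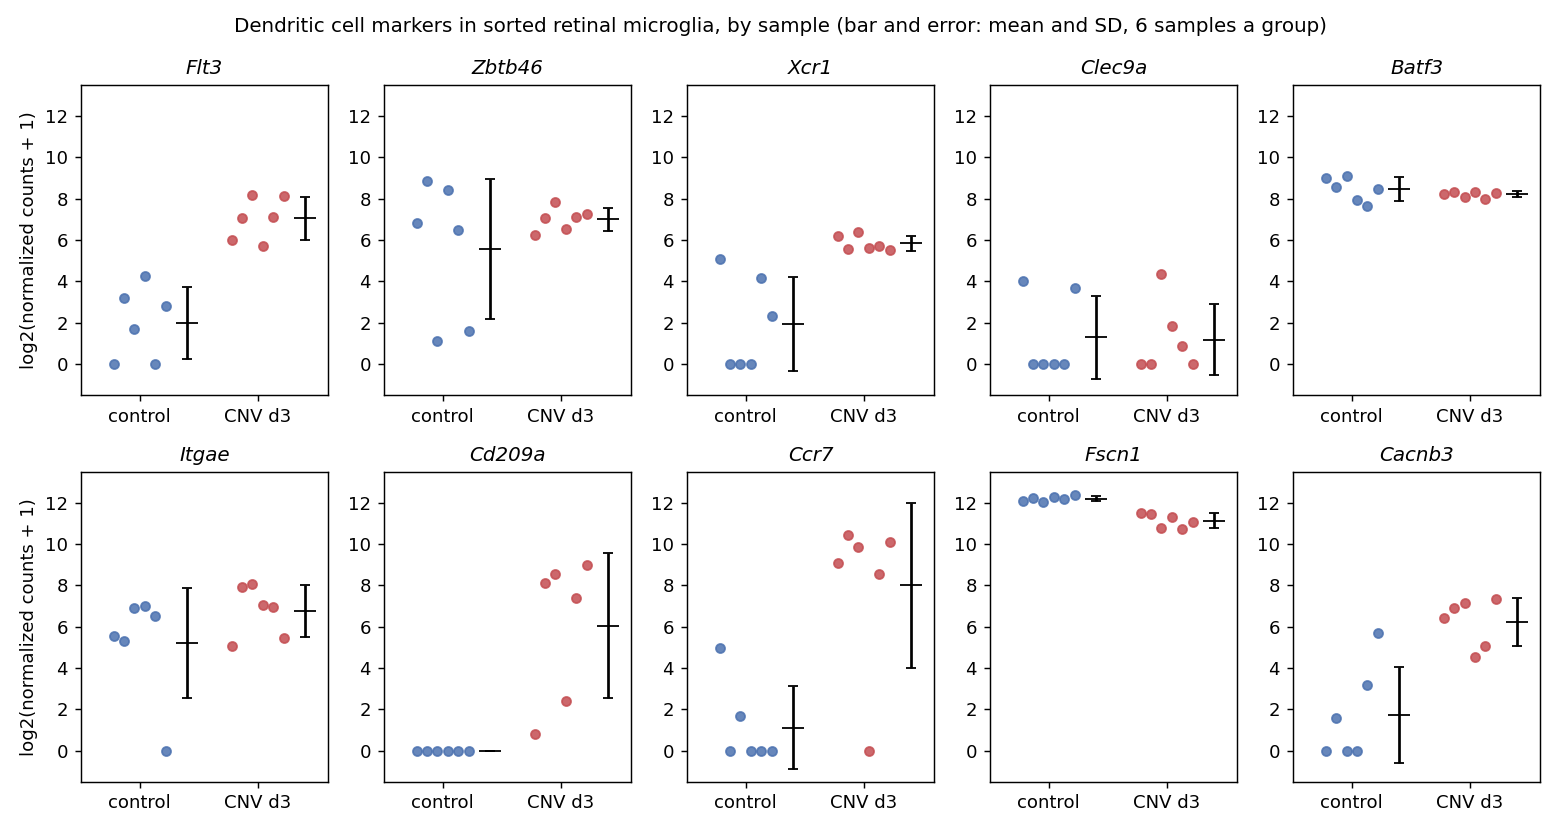
Each point is 1 sample, on a log2(normalized counts + 1) axis, for the 10 dendritic cell markers in 6 control (blue) and 6 CNV d3 (red) samples, and the black bars give the mean and SD on that scale. *Flt3*, *Xcr1* and *Cd209a* lay higher in every CNV d3 sample than in any control, *Fscn1* lay lower, and the other 6 overlapped. In CNV d3 replicates 1 and 4 the values of *Cd209a* rest on only 1 and 5 reads.

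For 3 markers, *Flt3*, *Xcr1* and *Cd209a*, every CNV d3 value lay above every control value, which held for 4.64% of all genes. For *Cd209a* this rested on 1 and 5 reads in CNV d3 replicates 1 and 4, at 0.739 and 4.33 normalized counts. The first lies under, and the other within, the 3.01 to 5.96 that 3 reads make in a control. The separation of *Cd209a* is therefore not clear of the floor in these samples. For 1 marker, *Fscn1*, every CNV d3 value lay below every control value, which held for 2.83% of all genes. The promoters of these 4 genes are shown because their groups did not overlap. Each window runs from 250 bases before to 50 bases after the RefSeq gene start on build GRCm38.p6, 5′ to 3′ on the strand of the gene, and capitals mark motif matches found on either strand. RefSeq promoters were matched for 8 of the 10 markers, and *Ccr7* and *Itgae* were not among them.
Flt3, chr5:147400440-147400739, minus strand: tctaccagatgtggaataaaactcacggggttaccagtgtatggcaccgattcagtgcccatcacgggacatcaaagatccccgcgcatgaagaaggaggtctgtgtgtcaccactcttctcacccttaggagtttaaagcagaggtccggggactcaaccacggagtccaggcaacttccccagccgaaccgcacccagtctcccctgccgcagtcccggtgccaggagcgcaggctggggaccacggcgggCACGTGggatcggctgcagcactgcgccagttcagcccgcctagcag
Xcr1, chr9:123861980-123862279, minus strand: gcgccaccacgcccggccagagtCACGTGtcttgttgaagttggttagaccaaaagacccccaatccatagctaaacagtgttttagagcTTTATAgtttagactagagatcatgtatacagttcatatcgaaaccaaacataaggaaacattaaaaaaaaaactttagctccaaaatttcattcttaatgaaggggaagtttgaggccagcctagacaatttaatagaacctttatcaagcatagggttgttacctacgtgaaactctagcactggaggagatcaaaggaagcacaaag
Cd209a, chr8:3748935-3749234, minus strand: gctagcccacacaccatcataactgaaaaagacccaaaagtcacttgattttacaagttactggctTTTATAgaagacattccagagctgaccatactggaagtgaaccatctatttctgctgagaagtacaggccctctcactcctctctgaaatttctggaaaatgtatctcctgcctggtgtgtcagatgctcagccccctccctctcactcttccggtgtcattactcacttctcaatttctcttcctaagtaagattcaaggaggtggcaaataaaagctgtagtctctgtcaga
Fscn1, chr5:142960105-142960404, plus strand: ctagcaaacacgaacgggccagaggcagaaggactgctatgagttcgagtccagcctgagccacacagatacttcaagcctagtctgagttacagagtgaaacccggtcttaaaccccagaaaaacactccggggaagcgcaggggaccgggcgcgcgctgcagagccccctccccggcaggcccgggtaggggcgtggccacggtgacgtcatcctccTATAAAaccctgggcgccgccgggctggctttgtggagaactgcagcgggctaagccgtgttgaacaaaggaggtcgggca
The motifs searched on both strands were AP-1 (TGANTCA, in 7.81% of 32851 RefSeq promoters of the same length), the interferon response core (GAAANNGAAA, 3.44%), PU.1 (GAGGAAG, 13.6%), NF-kappaB (8.46%), the E-box CACGTG (7.15%) and the TATA box (TATAAA, 13.6%). The *Flt3* window held an E-box 3 to 8 bases after the first transcribed base, and the *Xcr1* window an E-box at 227 to 222 bases before it. *Fscn1* was the only marker of the 8 with a TATA box on the coding strand, 31 to 26 bases before the start. In *Xcr1*, *Cd209a* and *Clec9a* the TATA letters were on the opposite strand, at 160 to 155, 184 to 179 and 226 to 221 bases before the start. For the other markers some RefSeq starts lay inside the gene as Gencode M21 places it, by 35038 bases for *Zbtb46*, 567 for *Batf3*, and 1488 and 3927 for the 2 entries of *Cacnb3*. The window at this internal start of *Zbtb46* held the AP-1 letters, that of *Batf3* held PU.1 and E-box letters, and neither of *Cacnb3* held any of the 6 motifs. These matches are letters in a window and were not tested for binding.

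*Flt3* (ENSMUSG00000042817, chr5:147330741-147400489 on GRCm38, minus strand), the receptor on which dendritic cell precursors depend, rose at CNV d3. In controls it ranged from 0 to 18.3 normalized counts with a median of 4.10, and at CNV d3 from 51.9 to 291 with a median of 137. The groups did not overlap, and the lowest CNV d3 sample was more than double the highest control. The means were 5.76 ± 6.94 in controls and 159 ± 102 at CNV d3 (SD, n = 6 each), with log2FC = 5.04 (SE 0.84) and adjusted p = 0.00104 by limma. *Flt3* kept its call when any single sample was left out, with log2FC between 4.65 and 5.50. Its ligand gene *Flt3l* was at 34.4 ± 24.4 and 45.9 ± 18.8 normalized counts (SD, n = 6 each) and was not called.

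*Zbtb46* (ENSMUSG00000027583, chr2:181387762-181459426, minus strand), the other marker of the whole cDC lineage, did not pass the test. Its controls ranged from 1.13 to 468 normalized counts with a median of 99.5, and its CNV d3 samples from 75.4 to 225 with a median of 135. The spread lay in the controls, where replicates 3 and 6 had 1 read each and replicates 2 and 4 had more than any CNV d3 sample. The mean was 169 ± 193 in controls and 136 ± 52.8 at CNV d3 (SD, n = 6 each), while limma on the log scale gave log2FC = 1.46 (SE 1.19, adjusted p = 0.502). The sign differed between tools: edgeR and DESeq2 both gave log2FC = -0.32.

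Of the 4 cDC1 markers, 1 rose. *Xcr1* (ENSMUSG00000060509, chr9:123852315-123862029, minus strand), which encodes the receptor for the chemokine XCL1, was between 44.9 and 82.3 normalized counts at CNV d3 with a median of 49.5. In controls it was at 0 in 3 samples and reached 33.3, with a median of 1.99. All 6 CNV d3 samples were therefore above all controls and close to each other. The means were 9.05 ± 13.6 and 57.5 ± 16.0 (SD, n = 6 each), a 6.36-fold ratio, with log2FC = 3.90 (SE 0.96) and adjusted p = 0.0139 by limma. On the reads, edgeR gave adjusted p = 0.122 and DESeq2 0.0362, in a range of 0.00340 to 0.675 over 27 alternatives, the upper end from limma treat. *Xcl1*, the gene of its ligand, averaged 0 normalized counts in controls and 1.19 at CNV d3.

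*Clec9a* (ENSMUSG00000046080, chr6:129408862-129424763, plus strand), which encodes a receptor for the actin of dead cells and is a defining cDC1 marker, was near 0 in both groups. It had reads in 2 controls, at 15.0 and 11.9 normalized counts, and in 3 CNV d3 samples, at 19.7, 2.60 and 0.801. No difference was detectable at this depth (log2FC = -0.10, SE 0.95, adjusted p = 0.949 by limma). Of its 3293 exon bases, 184 overlap those of *Clec1b* on the same strand.

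*Batf3* (ENSMUSG00000026630, chr1:191097847-191108945, plus strand), the transcription factor that cDC1 need, was present in all 12 samples and did not pass the test. Controls ranged from 202 to 553 normalized counts with a median of 366, and CNV d3 samples from 256 to 324 with a median of 302. The CNV d3 values fell inside the control range. The means were 372 ± 139 and 295 ± 28.6 (SD, n = 6 each; log2FC = -0.25, SE 0.24, adjusted p = 0.557 by limma). Its family and partner genes *Batf*, *Jun*, *Junb*, *Jund*, *Batf2*, *Irf4* and *Irf8* were not called either.

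*Itgae* (ENSMUSG00000005947, chr11:73090583-73147446, plus strand) encodes integrin alpha E, which pairs with integrin beta 7 to bind E-cadherin. Controls ranged from 0 to 128 normalized counts with a median of 67.7, and CNV d3 samples from 32.5 to 264 with a median of 128. Replicates 2, 3 and 4 of CNV d3 lay above all controls and the other 3 did not. The means were 70.0 ± 50.2 and 140 ± 97.6 (SD, n = 6 each; log2FC = 1.55, SE 1.03, adjusted p = 0.396 by limma). *Itgb7*, the gene of its partner chain, rose from 0.898 ± 1.46 to 310.0 ± 242 normalized counts (SD, n = 6 each; log2FC = 7.12, adjusted p = 6.18e-05 by limma). *Cdh1*, the gene of E-cadherin, was at 0 in all controls and at 93.8 ± 93.9 at CNV d3 (log2FC = 5.04, adjusted p = 0.0104 by limma).

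*Cd209a* (ENSMUSG00000031494, chr8:3743397-3748984, minus strand), a lectin gene of cDC2 and monocyte-derived dendritic cells, had 0 reads in all 6 controls and reads in all 6 CNV d3 samples. The CNV d3 values were 0.739, 273, 379, 4.33, 167 and 510 normalized counts in replicates 1 to 6, with a median of 220.4. Replicates 1 and 4 had 1 and 5 reads, so the high values came from the other 4 samples. The CNV d3 mean of 223 ± 205 (SD, n = 6) was at least 37.4-fold higher than the 5.96 normalized counts that 3 reads make in the shallowest control. Limma gave log2FC = 6.05 (SE 1.32) with adjusted p = 0.00694. The related genes *Cd209c*, *Cd209d* and *Cd209e* were at 0 in all controls and averaged 0.935, 3.92 and 3.07 normalized counts at CNV d3, and none was called.

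Of the 3 markers of mature, migratory dendritic cells, 2 rose. *Ccr7* (ENSMUSG00000037944, chr11:99144196-99155077, minus strand), the receptor that guides dendritic cells to lymph nodes, had reads in 2 controls, with 30.1 and 2.25 normalized counts. The CNV d3 values were 533, 1376, 922, 0, 375 and 1111 in replicates 1 to 6, with a median of 727. Thus 5 of the 6 CNV d3 samples were above every control, and replicate 4 had 0 reads, which allows up to 2.60 normalized counts. The means were 5.39 ± 12.1 and 720 ± 509 (SD, n = 6 each), with log2FC = 6.89 (SE 1.57) and adjusted p = 0.00895 by limma. The adjusted p was 0.0951 with limma voom, 0.0950 with the exact permutation test and 0.0508 by limma without CNV d3 replicate 6, in a range of 0.000321 to 0.199 over 27 alternatives. Replicate 4 held 24650350 reads on genes and reads on 19015 of them, and why it had no *Ccr7* reads was not tested.

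*Cacnb3* (ENSMUSG00000003352, chr15:98630840-98644529, plus strand), which encodes a beta subunit of voltage-gated calcium channels, rose as well. Controls ranged from 0 to 51.6 normalized counts with a median of 1.01, and CNV d3 samples from 22.5 to 163 with a median of 101. Control replicate 6 lay above CNV d3 replicates 4 and 5, and the other 5 controls lay below all CNV d3 samples. The means were 10.3 ± 20.5 and 93.8 ± 57.8, a 9.12-fold ratio (SD, n = 6 each; log2FC = 4.49, SE 1.03, adjusted p = 0.00919 by limma). The adjusted p was 0.0781 with edgeR and 0.0579 with the exact permutation test, in a range of 0.00200 to 0.396 over 27 alternatives. The other beta subunit genes, *Cacnb1*, *Cacnb2* and *Cacnb4*, were not called.

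*Fscn1* (ENSMUSG00000029581, chr5:142960343-142973185, plus strand), the gene of fascin, was lower at CNV d3. Controls ranged from 4209 to 5312 normalized counts with a median of 4692, and CNV d3 samples from 1695 to 2930 with a median of 2341. Every CNV d3 sample was below every control. The means were 4697 ± 386 and 2300 ± 530 (SD, n = 6 each), with log2FC = -1.06 (SE 0.14) and adjusted p = 0.000192 by limma. This passed the adjusted p but not the fold threshold, so *Fscn1* was not called; by adjusted p alone 4.57% of all genes were lower. The paralogs *Fscn2* and *Fscn3* averaged 18.6 and 0.597 normalized counts at CNV d3.

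**Figure D2:**
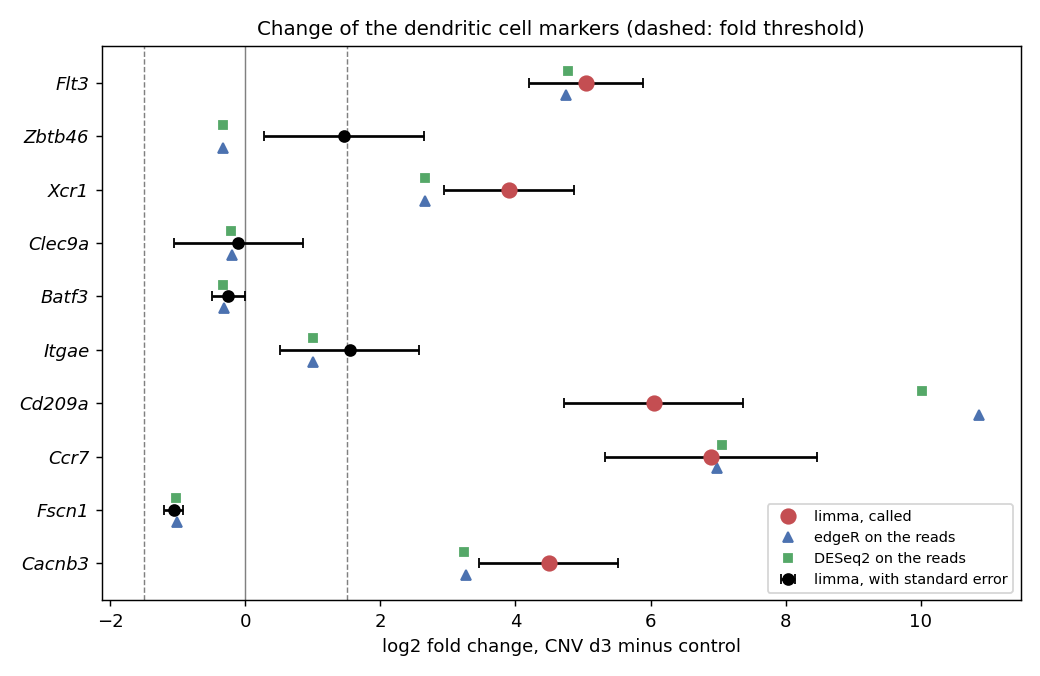
The log2 fold change of each marker, CNV d3 minus control, is given by limma (circle, with its standard error, red where called), edgeR (triangle) and DESeq2 (square), with dashed lines at 1.5 and -1.5. *Zbtb46* lies at 1.46 by limma and at -0.32 by edgeR and DESeq2, and the values for *Cd209a*, which had no control reads, depend on how each tool treats a count of 0.

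Set per kilobase of exon, the levels of the markers differed widely. In controls *Fscn1* was at a median of 1558 normalized counts per kilobase and *Batf3* at 229, followed by *Itgae* (14.8) and *Zbtb46* (11.7), whose ranges overlapped, and the other 6 were at or under 0.665. Of the genes in the table, 97.5% had a control mean no higher than that of *Fscn1*, without regard to length. At CNV d3 the order by median per kilobase was *Fscn1* (777), *Ccr7* (368), *Batf3* (189), *Cd209a* (139), *Itgae* (28.0), *Cacnb3* (25.3), *Flt3* (22.1), *Zbtb46* (15.9), *Xcr1* (11.1) and *Clec9a* (0.122). Each gene overlapped in range with its neighbour in this order, apart from *Xcr1* and *Clec9a*, so most of the order is not beyond the spread between samples. *Fscn1* and *Batf3*, listed as dendritic cell markers, were thus abundant in control microglia samples in which *Cd209a* had no reads.

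The 6 CNV d3 samples differed in how much of the increased markers they held. Replicate 3 was among the highest 3 samples for all 5 increased markers, replicate 6 for 4 and replicate 2 for 3. Replicate 4 was the lowest sample for 3 of the 5 (*Flt3*, *Ccr7* and *Cacnb3*) and among the highest 3 for none. It was also the only CNV d3 sample whose titles list separate parts, as those of all 6 controls do. Whether this bears on its values was not tested. Replicate 1 was the lowest for *Cd209a* and second for *Xcr1*. The coefficient of variation at CNV d3 was 92.0% for *Cd209a*, 70.8% for *Ccr7*, 64.4% for *Flt3*, 61.7% for *Cacnb3* and 27.8% for *Xcr1*. For the markers that were not called it was 69.6% for *Itgae*, 39.0% for *Zbtb46*, 23.0% for *Fscn1* and 9.69% for *Batf3*. As *Itgae* shows, a wide spread was not limited to the increased ones. *Clec9a* was at 203%, but it had only 26 reads over the 6 CNV d3 samples, so that value rests on a few reads.

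**Figure D3:**
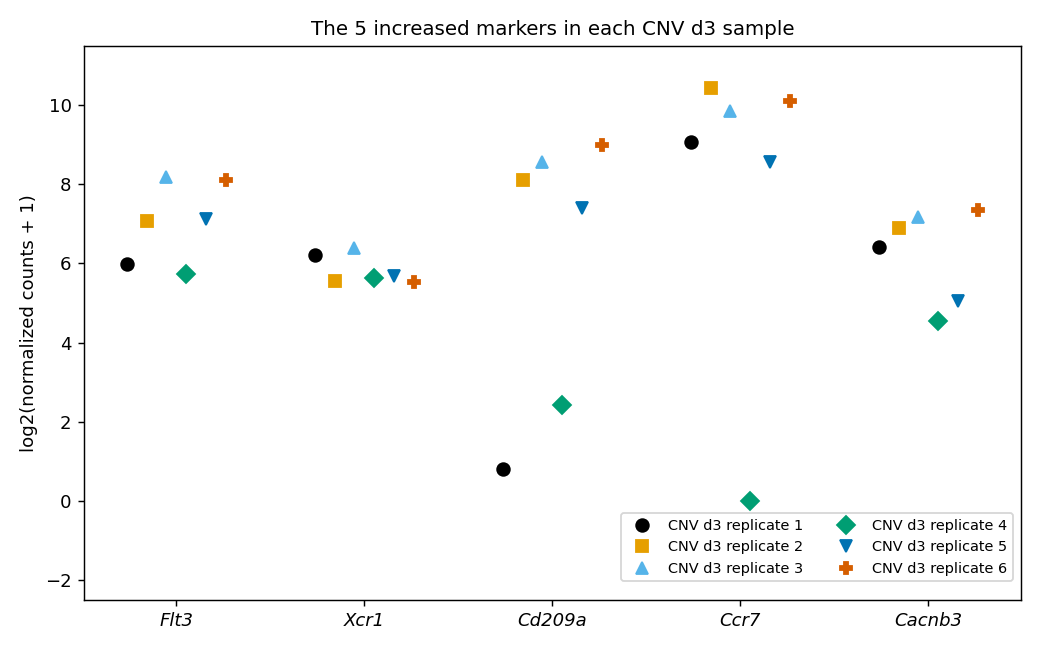
Each symbol is 1 of the 6 CNV d3 samples, on a log2(normalized counts + 1) axis, for the 5 markers that rose. Replicate 4 has 0 reads of *Ccr7*, replicates 1 and 4 have 1 and 5 reads of *Cd209a*, and the 6 values of *Xcr1* lie within 44.9 to 82.3 normalized counts.

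Other cell types that could carry these transcripts were checked with lists chosen with earlier results of these data known. Of 10 monocyte genes, 4 rose, *Ms4a4c* (log2FC = 1.73), *Ccr2* (5.60), *Plac8* (3.93) and *Ly6c2* (from 0 in all controls to 12.9 ± 8.26 normalized counts, SD, n = 6), and 0 fell. Their summed level was 11159 to 23823 normalized counts in controls and 14962 to 18996 at CNV d3, but *Fcgr1*, which was not called, made up 75.8% to 97.9% of it. *Fcgr1* was set aside because it was the most abundant gene of the list in these data. The other 9 genes summed to 239.9 to 1210.4 normalized counts in controls and 1283 to 4606 at CNV d3. The groups then did not overlap, by a narrow margin (1210.4 against 1283), whereas the sums of all 10 genes overlapped. *Ly6c2* and *Chil3* were at 0 in all controls. Within the CNV d3 group the sum of these 9 was highest in replicates 3 (4606) and 6 (4156), which were also the highest for *Flt3*, and lowest in replicates 1 (1283) and 4 (1486), which were the lowest for *Flt3* and *Cd209a*. *Xcr1* did not follow this order, with its lowest value in replicate 6 (44.9) and 73.1 in replicate 1. *Ccr7* and *Cacnb3* were lowest in replicates 4 and 5. *Zbtb46*, which was not called, was also highest in replicates 3 and 6 and lowest in replicates 1 and 4. The sum of the microglia genes was instead lowest in replicates 3 and 6 (533189 and 535705) and highest in replicates 1 and 4 (802716 and 748499). Replicates 2 and 5 did not keep an opposite order. The 6 proliferation genes, such as *Mki67* and *Top2a*, all rose. Their sum of 5884 to 15241 at CNV d3 was highest in replicates 6 and 3 and lowest in replicates 1 and 4. The part of these cells in the change of the markers was not tested.

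T cells, which can also carry CCR7 and integrin alpha E, were near 0: the 6 of 8 T cell genes in the table summed to 0 to 36.4 normalized counts in controls and 0.739 to 34.9 at CNV d3, none was called, and *Cd3d* and *Cd3g* reached 0.739 and 2.68 at most. The highest group means among them were those of *Lck* at CNV d3 (7.96 ± 8.84) and of *Cd4* in controls (4.56 ± 11.2; SD, n = 6 each). The 4 of 6 NK cell genes in the table summed to at most 22.1 and 34.3, led by *Klre1* and *Eomes*, and none was called. None of the 3 B cell genes (led by *Cd79b* and *Cr2*), the 5 neutrophil genes (*Csf3r* and *S100a8*), the 8 rod photoreceptor genes (such as *Gnat1*) or the 5 endothelial genes (*Kdr* and *Pecam1*) was called. The rod genes were uneven between samples, with sums of 771 to 7000 normalized counts in controls and 604 to 12981 at CNV d3. The highest were in CNV d3 replicates 4 (12981) and 6 (11055). Among 9 border macrophage genes 2 rose, *Cbr2* (log2FC = 4.30) and *Folr2* (3.03), and the sum was 2553 to 4272 normalized counts in controls and 3145 to 4430 at CNV d3. Among 9 genes of retinal neurons *Syt1* and *Thy1* rose, with sums of 365 to 1547 and 563 to 1355, and among 6 Mueller glia genes *Dkk3* and *Vim* rose, with sums of 6846 to 9909 and 8020 to 8978.

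A wider set of 73 dendritic cell genes in the table gave 20 that rose (27.4%, beside 3.91% of all genes) and 0 that fell, with a median log2FC of 1.45. These lists were chosen with earlier results of these data known, so the higher share is a description and not a test. With a filter of at least 10 normalized counts in at least 6 samples, 12 of these genes rose, and 734 of the 12753 genes kept. By adjusted p alone 8 of the 73 were lower, where 4.57% of all genes were. At an unadjusted p under 0.05 by limma 9 were lower, but the share of all genes at that threshold was not computed. The count rested in part on single samples, with 13 without CNV d3 replicate 2, 13 without replicate 3 and 13 without replicate 6, and it was 6 with edgeR after its filter on low counts. By list, 6 of 12 genes of cDC and their precursors rose, 6 of 26 of mature cells, 3 of 12 of cDC2, 3 of 12 of plasmacytoid cells and 2 of 11 of cDC1.

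**Figure D4:**
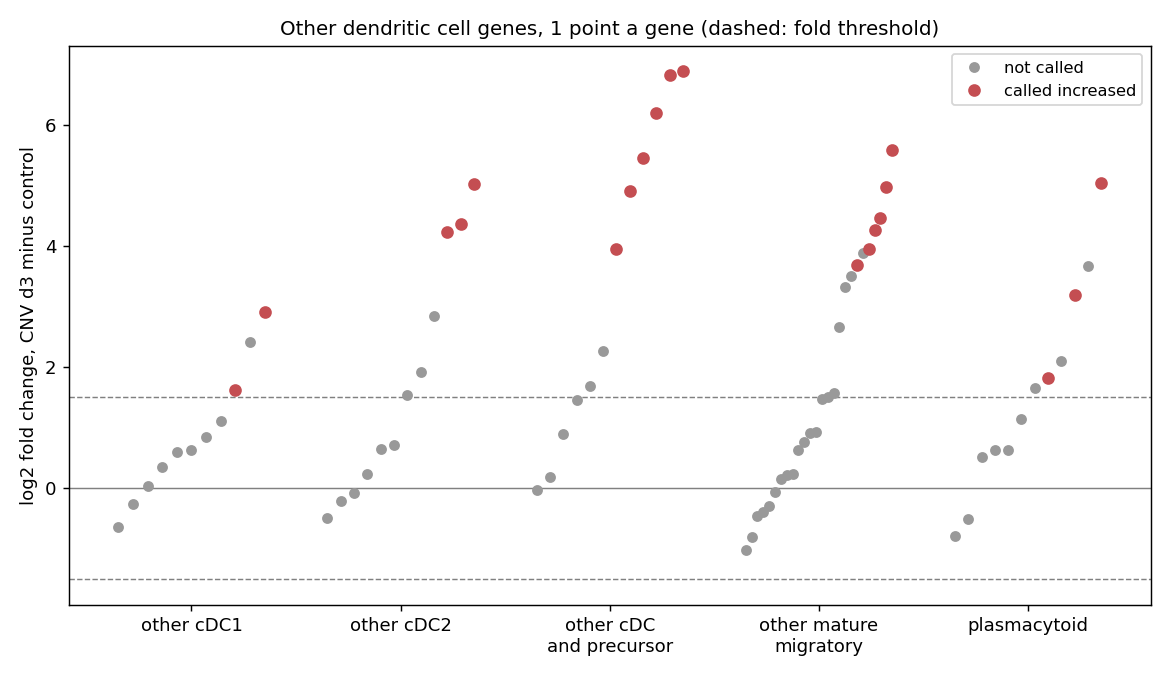
Each point is the log2 fold change by limma, CNV d3 minus control, of 1 gene of the 5 lists of other dendritic cell genes, in red where called, with dashed lines at 1.5 and -1.5. The 20 called genes are all increased, and 6 of them are among the 12 genes of cDC and precursors.

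Among genes of cDC and precursors, the largest increases were those of *Dpp4*, which encodes the peptidase CD26, from 0.356 ± 0.553 to 213 ± 196 normalized counts (log2FC = 6.88), and *Kmo*, a kynurenine pathway enzyme, from 0.563 ± 1.38 to 236 ± 236 (log2FC = 6.82; SD, n = 6 each). *Ciita*, the master regulator of MHC class II genes, rose from 1.67 ± 3.63 to 192 ± 183, *Jaml* from 0 in all controls to 98.2 ± 93.8, and *P2ry10* from 0.169 ± 0.413 to 60.8 ± 41.0. *Itgax*, which encodes CD11c, went from 692 ± 219 to 1852 ± 520, with a log2FC of 1.45 just under the threshold (adjusted p = 0.00108 by limma). *Relb* was at 768 ± 200 and 730 ± 113 and was not called.

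The cDC2 genes that rose were *Tnip3* (0.188 ± 0.460 to 71.2 ± 51.5 normalized counts) and the lectin genes *Clec10a* and *Mgl2*, which had 0 reads in all controls and reached 48.9 ± 41.8 and 38.5 ± 32.6 (SD, n = 6 each). *Irf4*, the factor of this type, did not pass (148 ± 145 and 141 ± 61.5, adjusted p = 0.470 by limma). *Sirpa*, which microglia also express, was lower by adjusted p alone (log2FC = -0.48). The cDC1 genes that rose were *Id2*, a regulator of DNA binding by helix-loop-helix factors (685 ± 164 to 2119 ± 528), and the inhibitory receptor gene *Btla* (32.7 ± 37.1 to 133 ± 58.4). *Irf8*, which both microglia and cDC1 need, stood at 18944 ± 1379 and 15908 ± 1953 and was not called, *Cadm1* was lower by adjusted p alone (log2FC = -0.64), and *Cd8a* averaged 0 and 0.557.

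Of the genes of mature dendritic cells, the chemokine gene *Ccl22* rose from 0.666 ± 1.03 to 210 ± 288 normalized counts, *Cd40* from 30.3 ± 45.9 to 125 ± 35.2, and *Cd200* from a mean of 0.169 to a mean of 41.7, with 88.9 in the highest sample (SD, n = 6 each). *Socs2*, a feedback inhibitor of cytokine signaling, had 0 reads in all controls and 53.8 ± 31.1 at CNV d3, and *Slco5a1* rose from 0.375 ± 0.919 to 30.0 ± 27.9. *Ccl17* was at 0 in all controls and 19.3 ± 21.2 at CNV d3 and was not called. The costimulatory genes *Cd80* (log2FC = -0.80) and *Cd86* (-0.39) were lower by adjusted p alone, and *Cd83* stood at 10438 ± 2928 and 9758 ± 1181. Of the plasmacytoid genes, *Irf7*, also an interferon-induced gene, rose from 1738 ± 1157 to 5459 ± 1552, *Spib* from 0 in all controls to 60.2 ± 44.4 and *Runx2* from 3.49 ± 7.15 to 23.2 ± 15.3. *Siglech* and *Tcf4*, which the control samples held at 47164 ± 1660 and 4136 ± 611, were lower by adjusted p alone.

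Across the 6 CNV d3 samples, the genes whose log2(normalized counts + 1) ran most nearly parallel to each marker were looked up among 9684 genes with a mean of at least 100 normalized counts there. They were *Isg20*, *Fh1* and *Rabgef1* for *Flt3*, *Myo10*, *Srrt* and *Csnk2b* for *Cd209a*, *Ndufaf3*, *Ecm1* and *Zfp207* for *Ccr7*, *Mrpl18*, *Trappc6a* and *Ube2r2* for *Cacnb3*, and *BC028528*, *Cflar* and *Rmnd1* for *Xcr1*. For the markers that were not called they were *Septin11*, *Asf1b* and *Rcn3* for *Zbtb46*, *2410131K14Rik*, *Kmt2d* and *Ubtf* for *Batf3*, *Ccdc191*, *Srr* and *Kin* for *Itgae*, and *Pla2g6*, *Thap7* and *Leng1* for *Fscn1*. Pearson's r lay between 0.966 and 0.997. With 6 points and 9684 genes to choose from, these values are a description and carry no test. No gene was named for more than 1 marker.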

How the data were processed

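RNA of 6 CNV d3 and 6 control samples had been amplified from picogram amounts with a SMARTer kit and sequenced as single reads without strand. Per the labels and the methods of the study, the authors checked reads with FastQC 0.72, mapped them with STAR 2.7.2b to GRCm38.p6, merged both flow cells of a sample, counted genes with featureCounts 1.6.4, removed genes without reads and divided the counts by DESeq2 1.22.2 size factors. The sample titles list separate parts for all 6 control samples but, at CNV d3, for replicate 4 alone. An effect of this difference therefore can hardly be told apart from that of the laser, and it was not tested. The deposited values are these normalized counts, a signal per gene. Columns with the authors' group means, fold changes and p-values were not used. All values were whole multiples of the value of 1 read within a tolerance of 1e-06, so the reads could be recovered.

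The markers and all gene lists were chosen with earlier results of these data known. Limma 3.58.1 with a mean-variance trend (R 4.3.3) was fitted to log2(normalized counts + 1) of all 27299 genes, and p-values were adjusted over all of them. A log2FC on this log2(value + 1) scale can be smaller than the log2 ratio of the means or, as for *Xcr1*, *Cacnb3* and *Zbtb46*, larger. Alternatives were edgeR 4.0.16, DESeq2 1.42.0 and limma voom on the reads, an exact permutation test over 924 labelings, other pseudocounts, filters, normalizations and thresholds, reads thinned to 10963178 per sample, the replicate number as a block, and leaving out each sample in turn. The fits were also run on simulated reads with the same fold change for every changed gene and a spread set by its mean. That setting did not copy markers near 0 in controls with uneven CNV d3 values, so it does not show how the fits perform on them. The named genes were all 10 markers, from each other list up to 5 called genes with the highest mean (with none called, the 2 highest), and for each marker with reads in at least 5 CNV d3 samples the 3 genes with the highest Pearson's r there; others were named after their values were seen. A few genes of the lists are not reported here by name. Lengths and positions are from Gencode M21 (GRCm38), which matched 27238 of the 27299 genes. Counting was not strand-specific, so antisense reads cannot be told apart. The floor of a count of 0 was 3 reads and covers counting error only.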

Additional observations from a re-analysis of the deposited data

Results flagged for a closer look

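In 3 of 19 groups of 6 samples, a single value of a marker stood far from the rest, that is its gap to the nearest value made up more than 0.625 of the range of the group. Chance alone gives about 1 in 20 groups for normally distributed values; the rate for groups of mostly 0 or a few reads, as here, was not computed. *Ccr7* was at 30.1 normalized counts in control replicate 1, with 2.25 the next highest control. *Cacnb3* was at 51.6 normalized counts in control replicate 6, the shallowest sample, with 8.03 the next highest control. *Clec9a* was at 19.7 normalized counts in CNV d3 replicate 3, with 2.60 the next highest sample of that group. In reads these values were 28, 26 and 22. Control replicate 1 also held the highest control values of *Xcr1* (33.3) and *Clec9a* (15.0).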

How the results depend on the processing

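The log2FC of the markers gave 266 values under the alternatives, of which 245 kept both the sign and the verdict of called or not called, 13 kept the sign but lost the call, and 8 changed sign, all 8 in genes that were not called. *Zbtb46* was at -0.32 with edgeR, with edgeR after its filter and with DESeq2, and *Clec9a* at -0.74 to 0.44 with 1 sample left out; the cause was not tested. With edgeR 3 markers rose, after its filter 2 (*Cd209a* and *Clec9a* were then not tested), with the exact permutation test 3 and with limma treat 0. With an absolute log2FC over 1, or adjusted p alone, 1 marker was lower, *Fscn1*, since only the threshold moved. With 1 sample left out, 4 to 5 markers and 13 to 19 of the other dendritic cell genes rose. Of these other genes, 12 rose with at least 10 normalized counts in at least 6 samples, 6 with edgeR after its filter, 9 with the permutation test, 12 at an adjusted p under 0.01 and 5 with limma treat, and 1 was lower at an absolute log2FC over 1 and 8 by adjusted p alone. Over all genes, 1068 rose and 293 fell. The number that rose was 600 with a pseudocount of 10, 430 with edgeR after its filter, 690 with the permutation test, 2264 by adjusted p alone, 569 at an adjusted p under 0.01 and 134 with limma treat. The number that fell was 572 with DESeq2, 489 with limma voom, 470 at an absolute log2FC over 1, 1247 by adjusted p alone, 145 at an adjusted p under 0.01 and 2 with limma treat. Thinning all samples to the depth of the shallowest left 5 markers increased. Same-numbered samples did not deviate together (r from -0.01 to 0.05 over 13614 genes, 0 of 6 over 0.1, and 1 of 6 best with its own number). This cannot show whether samples were collected or sorted in pairs. With the replicate number as a block, 5 markers, 19 other dendritic cell genes and 921 genes in all rose and 215 fell. Depth limits *Clec9a* and the controls of *Cd209a*, where a few reads decide a value. The same holds for the controls of the other increased markers. Over the 6 controls, *Ccr7* had 30 reads in total, *Flt3* 31, *Cacnb3* 36 and *Xcr1* 50.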
